A study of Mus musculus with 12 samples.

Results

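The Nodal pathway was followed here through 10 genes chosen by name: the co-receptor gene Tdgf1, the ligand genes Nodal and Gdf3, the inhibitor genes Lefty1 and Lefty2, the receptor genes Acvr1b and Acvr2b, and Smad2, Smad3 and Smad7. All 10 were found in the count table of 55335 genes, each in 1 row, and all 10 were among the 16468 genes with enough counts to be tested. Polyadenylated RNA came from a mouse embryonic stem (ES) cell line at day 0, day 2, day 4 and day 6, in 12 libraries, 3 for each day. Every day carries the same culture description: serum replacement medium with leukaemia inhibitory factor (LIF), a cytokine that sustains ES cell self-renewal, typically on gelatin-coated plates with irradiated embryonic fibroblasts as feeders. The labels name no treatment that starts the time course, no strain or clone and no feeder removal, and nothing states that the 3 replicates were grown separately, so a p-value here reflects library-to-library spread that could be technical only.

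Nodal is a secreted ligand of the transforming growth factor beta (TGF-beta) family that acts in the epiblast of the early embryo and in pluripotent cells. With TDGF1 (also called Cripto), an EGF-CFC protein on the cell surface, it engages a type I receptor such as ACVR1B and a type II receptor such as ACVR2B, which phosphorylate SMAD2 and SMAD3. These enter the nucleus with SMAD4, bind DNA beside partners such as FOXH1, and switch on targets that include Nodal itself and the genes of its own inhibitors, Lefty1 and Lefty2.

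Totals ran from 6.95 to 13.3 times 1e6 counts per library. The 12 ES cell markers summed to 5246 to 5349 CPM (counts per 1e6 counts after scaling) at day 0 and to 815 to 840 CPM at day 6, and all 12 fell between day 0 and day 2. The 10 markers of extraembryonic endoderm, all of which rose by day 2, summed to 386 to 393 CPM at day 0 and 2301 to 2321 CPM at day 6. The 8 trophectoderm markers summed to 119.6 to 128 CPM at day 0 and 505 to 523 CPM at day 6, and of 7 tested 4 rose and 3 fell. The higher trophectoderm sum lay mostly in Krt8 (means of 24.02 CPM at day 0 and 185.4 CPM at day 6) and Krt18 (22.18 and 288.7 CPM). Gata3 and Cdx2 also rose, to means of 18.73 and 2.67 CPM at day 6. Tfap2c fell from 53.84 to 4.15 CPM and Hand1 from 6.05 to 1.52 CPM, and Eomes fell as well. The 8 neural progenitor markers summed to 34.3 to 37.2 CPM and 102 to 114 CPM (of 6 tested, 5 rose and 1 fell), and the 8 mesendoderm markers to 20.2 to 25.1 CPM and 44.5 to 46.3 CPM (of 4 tested, 2 rose and 2 fell). The higher mesendoderm sum lay in Foxa2, also an extraembryonic endoderm marker, with means of 0.874 CPM at day 0 and 30.6 CPM at day 6. Lhx1 went from 0.199 to 3.99 CPM, while Eomes went from 16.0 to 9.79 CPM and T from 3.37 to 0.120 CPM. The 13 markers of embryonic fibroblasts summed to 28.3 to 32.7 CPM at day 0, 25.3 to 27.5 CPM at day 2, 58.0 to 63.8 CPM at day 4 and 241 to 257 CPM at day 6. Of the 10 tested, 8 rose and 2 fell between days 0 and 6, with Lum and Fap at 0 at day 0 and S100a4 at 0 at day 6. The day 6 sum lay mostly in Col3a1 (mean of 79.5 CPM), Acta2 (63.2 CPM), Col1a2 (49.8 CPM) and Col1a1 (36.8 CPM). The genes that fell were Thy1, from 11.6 to 0.555 CPM, and Pdgfrb, from 9.80 to 7.72 CPM. The part of these shifts in the results below was not tested, and in bulk RNA fewer cells of a type and less RNA per cell cannot be told apart.

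Over the first 2 days 3 members rose and 7 fell, where 68.1% of all genes tested changed, 34.9% upward and 33.2% downward. By day 4 against day 0, 2 rose and 7 fell (73.6% of all genes changed, 37.5% up and 36.1% down), and by day 6, 2 rose and 8 fell (76.9%, 39.4% up and 37.5% down). The median log2 change of the members was -0.72, -0.83 and -1.39 in these 3 comparisons, which share the day 0 libraries, beside medians of 0.02, 0.01 and 0.02 over all genes. The members were chosen with earlier results of these data known, so their counts and medians beside all genes are description only. From day 2 to day 4, 2 members rose and 5 fell (50.1%, 25.3% up and 24.8% down). From day 4 to day 6, 3 rose and 2 fell (42.9%, 23.6% up and 19.3% down), and from day 2 to day 6, 4 rose and 5 fell (63.6%, 32.4% up and 31.2% down). All 10 passed the F-test over the 4 days, as did 89.2% of all genes. With library size as the only scaling, log2 changes against day 0 moved up by 0.13 at days 2 and 4 and by 0.10 at day 6, and the split of all genes at day 2 went from 5743 up and 5473 down to 7053 up and 4412 down, while the members split into 3 up and 6 down.

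Tdgf1 (ENSMUSG00000032494, chromosome 9, 110939603 to 110946158, minus strand, GRCm38) and Nodal (ENSMUSG00000037171, chromosome 10, 61417972 to 61425338, plus strand) were the members that fell most over the first 2 days and over the whole course, respectively. The 250 bases upstream of each RefSeq start (build GRCm38.p6) are shown for this pair, both of which were highest at day 0. By day 2 Tdgf1 fell 43.1-fold and Nodal 2.57-fold, and from there to day 6 Tdgf1 rose while Nodal fell further. Acvr1b and Acvr2b were also highest at day 0 and lower at day 2. Capitals mark matches to a motif searched on both strands.
Tdgf1, chr9:110946159-110946408, minus strand: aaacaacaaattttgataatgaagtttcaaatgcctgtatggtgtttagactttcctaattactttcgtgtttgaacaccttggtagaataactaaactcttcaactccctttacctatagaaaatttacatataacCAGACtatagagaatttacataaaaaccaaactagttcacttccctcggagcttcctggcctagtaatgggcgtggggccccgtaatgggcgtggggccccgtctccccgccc
Nodal, chr10:61417722-61417971, plus strand: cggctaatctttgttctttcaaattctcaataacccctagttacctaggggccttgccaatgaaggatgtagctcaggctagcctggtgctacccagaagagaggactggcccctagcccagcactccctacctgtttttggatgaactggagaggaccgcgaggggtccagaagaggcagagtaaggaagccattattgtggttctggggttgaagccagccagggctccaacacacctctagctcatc

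Promoters of 5 of the 10 members were found in the RefSeq table, those of Tdgf1, Nodal, Acvr1b, Acvr2b and Smad3. The motifs were the FOXH1 letters AATNCACA, the short SMAD letters CAGAC, the SMAD palindrome GTCTAGAC, which holds no CAGAC, and the POU octamer ATGCAAAT. Over 300-base windows, 250 before the start and 50 after it, the only matches were 1 CAGAC in Tdgf1 and 1 in Acvr2b. Sequence outside these windows was not searched, so sites elsewhere in or near a gene would be missed. Of all 32851 promoters in the table, 49.6% held CAGAC, 3.6% the FOXH1 letters, 1.74% the octamer and 0.213% the palindrome. The 250 bases of Tdgf1 had 42.0% G and C and 7 CpG, and those of Nodal 53.2% and 3 CpG, where the medians over all promoters were 52.4% and 6 CpG. The 3 others were richer, with 69.2% for Smad3, 72.8% for Acvr2b and 78.8% for Acvr1b.

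Tdgf1 collapsed within 2 days and then climbed back part of the way. Its level was 526, 506 and 551 CPM in the 3 libraries of day 0, 12.05, 12.9 and 11.7 CPM at day 2, 21.9, 21.3 and 22.9 CPM at day 4, and 48.0, 52.1 and 51.3 CPM at day 6. No 2 days overlapped, and every day 6 library lay above every day 4 library and below every day 0 library. The fall by day 2 was 43.1-fold (log2 -5.43 ± 0.06 SE, adjusted p = 3.67e-42), where p comes from the quasi-likelihood test of edgeR and is adjusted by Benjamini-Hochberg over all genes tested. From day 2 the level rose 1.79-fold by day 4 (log2 0.84 ± 0.08, adjusted p = 5.39e-11) and again 2.29-fold by day 6 (log2 1.20 ± 0.07, adjusted p = 1.252e-17). The rise from day 2 to day 6 was 4.11-fold (log2 2.04 ± 0.07, adjusted p = 2.80e-25). At day 6 Tdgf1 was still 10.5-fold below day 0 (log2 -3.39 ± 0.05, adjusted p = 2.18e-38).

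The processed pseudogene Tdgf1-ps1 (ENSMUSG00000095834, chromosome 16, 3730510 to 3731022, plus strand, 1 exon) followed a like course, at 29.3 ± 2.08 CPM (SD, n = 3) at day 0, 0.615 ± 0.255 at day 2, 0.785 ± 0.311 at day 4 and 2.57 ± 0.382 CPM at day 6. Its 513 bases match the Tdgf1 coding sequence of 516 bases at 506 of 512 aligned positions, 98.8%, with an identical run of 154 bases. Of its 50-base windows, 50.9% occur unchanged in Tdgf1 transcripts, and 8.86% of Tdgf1 windows occur in it. The stretch of 60 bases where the pair differ most, positions 405 to 464 of the Tdgf1 coding sequence from the A of the start codon, shows how few letters tell them apart, with the differing bases in capitals.
Tdgf1: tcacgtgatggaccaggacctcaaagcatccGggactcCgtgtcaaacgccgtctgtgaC
Tdgf1-ps1: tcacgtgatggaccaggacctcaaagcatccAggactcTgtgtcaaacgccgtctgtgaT
The treatment of reads with several positions is not stated, so the counts of Tdgf1-ps1 are uncertain. In summed counts of the day 0 libraries it held 715 against 12860 for Tdgf1.

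**Figure D1:**
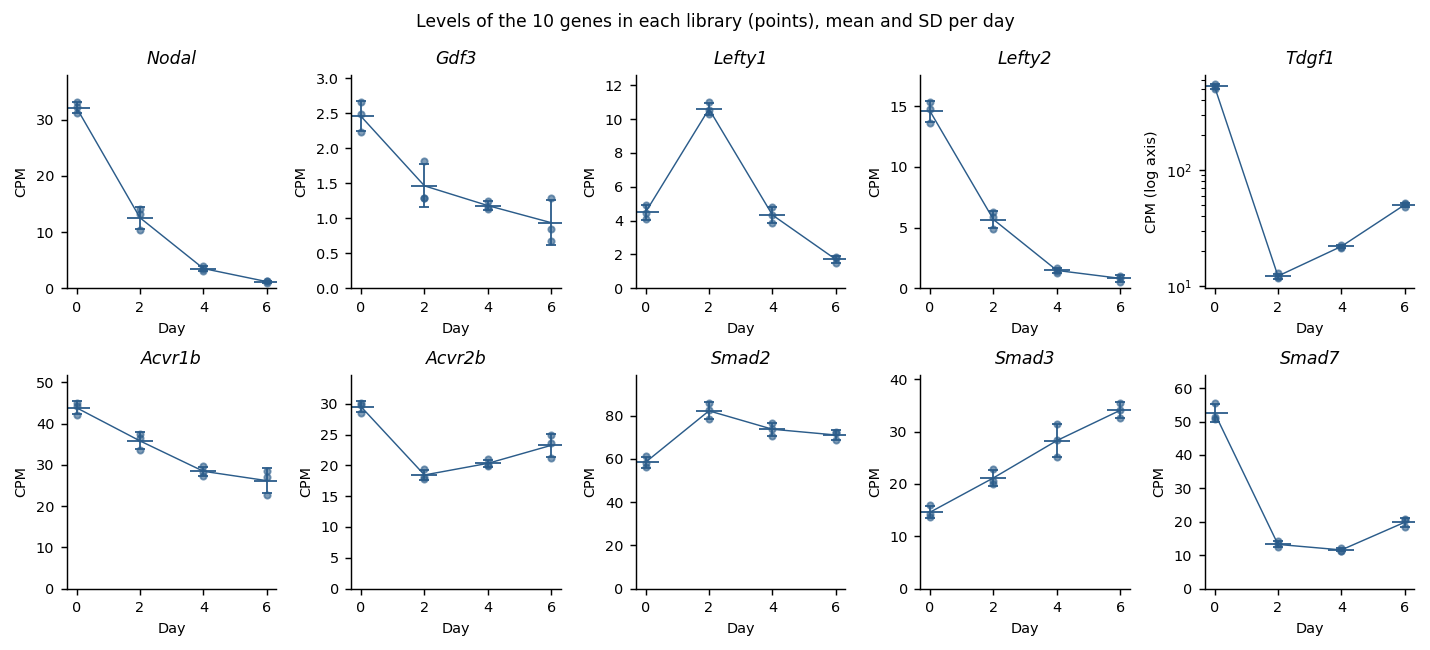
Level of each of the 10 genes in CPM (vertical axis, linear from 0 except for Tdgf1, whose axis is logarithmic) against day, with 1 point per library and a bar for the mean and SD of 3 libraries. Nodal and Lefty2 step down from day to day, Lefty1 peaks at day 2 at 10.6 CPM, Tdgf1 drops to 12.2 CPM and climbs to 50.4 CPM, and Smad3 rises throughout.

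The ligand genes fell. Nodal stood at 32.2, 33.1 and 31.1 CPM at day 0, 13.2, 10.4 and 14.1 CPM at day 2, 3.10, 3.46 and 3.97 CPM at day 4, and 0.973, 1.30 and 1.26 CPM at day 6. Each day lay below the one before it with no overlap. The steps were 2.57-fold from day 0 to day 2 (log2 -1.36 ± 0.10, adjusted p = 1.59e-15), 3.61-fold to day 4 (log2 -1.85 ± 0.15, adjusted p = 2.48e-13) and 2.98-fold to day 6 (log2 -1.58 ± 0.26, adjusted p = 4.06e-06). Over the whole course Nodal fell 27.6-fold (log2 -4.79 ± 0.16, adjusted p = 2.31e-26).

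Gdf3 (ENSMUSG00000030117, chromosome 6, 122605403 to 122610087), a relative of Nodal that can also signal through the EGF-CFC co-receptors, had few reads, 60 counts in all at day 0 and 29 at day 6. It was at 2.49, 2.23 and 2.66 CPM at day 0, 1.29, 1.29 and 1.82 CPM at day 2, 1.16, 1.249 and 1.14 CPM at day 4, and 0.673, 1.30 and 0.841 CPM at day 6. Day 0 lay above all later libraries, and days 4 and 6 overlapped. Gdf3 fell 2.70-fold by day 6 (log2 -1.43 ± 0.31, adjusted p = 8.65e-05). Its fall by day 2 passed with adjusted p = 0.0141 (log2 -0.76 ± 0.27), and the values between successive later days did not pass (adjusted p = 0.474 and 0.405). The day 2 call was lost in DESeq2 (adjusted p = 0.0645) and without any 1 of 3 libraries, replicate 3 of day 0 or replicate 1 or 2 of day 2 (adjusted p = 0.0505, 0.0560 and 0.0524).

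The inhibitor genes Lefty1 (ENSMUSG00000038793, chromosome 1, 180935022 to 180938400) and Lefty2 (ENSMUSG00000066652, chromosome 1, 180893108 to 180899103) parted at day 2. Lefty1 was at 4.07, 4.46 and 4.94 CPM at day 0, 10.99, 10.5 and 10.3 CPM at day 2, 4.36, 4.80 and 3.83 CPM at day 4, and 1.80, 1.84 and 1.47 CPM at day 6. Its day 2 libraries lay above all others, days 0 and 4 overlapped, and day 6 lay below them. Lefty1 rose 2.37-fold by day 2 (log2 1.24 ± 0.15, adjusted p = 1.13e-09), fell 2.42-fold from there to day 4 (log2 -1.27 ± 0.14, adjusted p = 8.64e-10) and 2.55-fold from day 4 to day 6 (log2 -1.35 ± 0.21, adjusted p = 1.72e-06). Against day 0 its day 4 value was log2 -0.03 ± 0.18 (adjusted p = 0.904) and at day 6 it was 2.60-fold lower (log2 -1.38 ± 0.22, adjusted p = 3.86e-07).

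Lefty2 was at 14.8, 13.7 and 15.3 CPM at day 0, 4.85, 5.87 and 6.27 CPM at day 2, 1.26, 1.44 and 1.70 CPM at day 4, and 1.05, 0.864 and 0.526 CPM at day 6. Each day lay below the one before it. It fell 2.59-fold by day 2 (log2 -1.37 ± 0.13, adjusted p = 9.55e-12), 3.88-fold from day 2 to day 4 (log2 -1.96 ± 0.22, adjusted p = 7.98e-10) and 17.2-fold over the whole course (log2 -4.10 ± 0.20, adjusted p = 9.28e-21). The last step, log2 -0.77 ± 0.34, did not pass (adjusted p = 0.0637), and passed without replicate 1 of day 6 (log2 -1.04, adjusted p = 0.0429).

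The change of balance between the Lefty genes was tested within libraries, where no scaling enters. All 6 pairs tested in this way were chosen with earlier results of these data known. The count ratio of Lefty1 to Lefty2 was 0.310 at day 0 (log2 -1.69 ± 0.14, SD, n = 3), 1.88 at day 2 (log2 0.91 ± 0.24), 2.89 at day 4 (log2 1.53 ± 0.34) and 2.09 at day 6 (log2 1.07 ± 0.32). All later libraries lay above all day 0 libraries, and the later days overlapped. An exact permutation test of the F statistic over the 12 libraries gave p = 0.00214, adjusted over 6 gene pairs to 0.00257, where the smallest p possible is 6.49e-05. The ratio of Lefty2 to Nodal did not pass the same exact test (p = 0.120, adjusted p = 0.120). It was 0.455 at day 0, 0.454 at day 2, 0.426 at day 4 and 0.685 at day 6 (log2 -0.55 ± 0.64), when only 27 counts of Lefty2 remained in 3 libraries.

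The Lefty genes are close copies on the same strand. Their coding sequences of 1107 bases match at 1010 of 1089 aligned positions, 92.7%, with an identical run of 140 bases. Of the 50-base windows of Lefty1 transcripts 17.9% occur in Lefty2, and 11.95% the other way, so the counting could split or drop reads there, and counts of both are uncertain to that extent. The most different stretch of 60 bases, positions 34 to 93 of the Lefty1 coding sequence, has 18 differences, in capitals, beside the matching stretch of Lefty2.
Lefty1: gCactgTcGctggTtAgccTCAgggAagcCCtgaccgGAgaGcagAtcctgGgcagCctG
Lefty2: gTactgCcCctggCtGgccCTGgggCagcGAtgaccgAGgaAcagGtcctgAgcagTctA

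**Figure D2:**
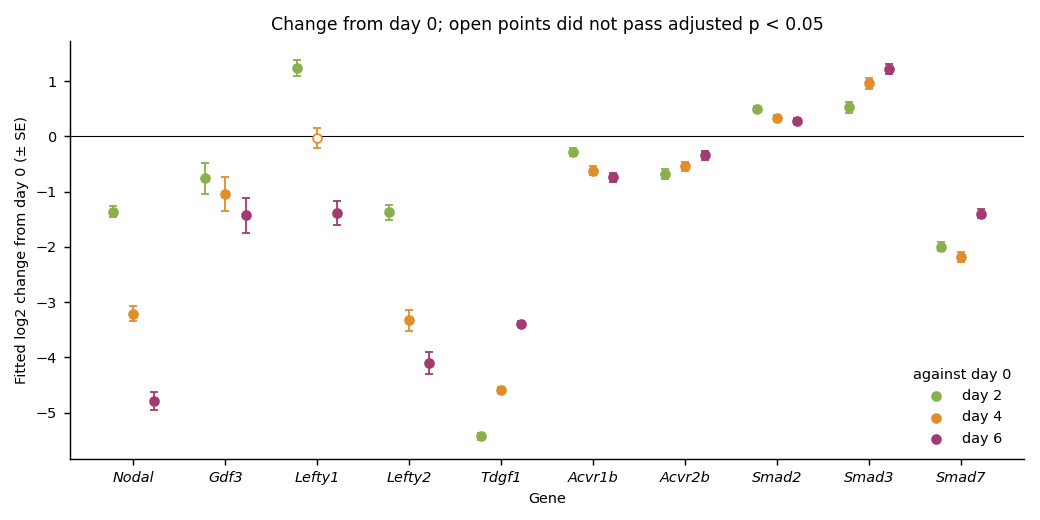
Fitted log2 change from day 0 with its SE (vertical axis) for each gene at days 2, 4 and 6, with filled points for adjusted p under 0.05 and open points for the rest. Lefty1 alone is above 0 at day 2 and below it at day 6 among called values, and Tdgf1 and Nodal cross in size between day 2 and day 6.

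The receptor genes changed less. Acvr1b (ENSMUSG00000000532, chromosome 15, 101174067 to 101213684), which encodes the type I receptor ALK4, was at 45.1, 44.4 and 42.1 CPM at day 0, 37.5, 36.4 and 33.6 CPM at day 2, 29.6, 28.3 and 27.4 CPM at day 4, and 27.2, 22.8 and 28.6 CPM at day 6. It stepped down without overlap to day 4, and days 4 and 6 overlapped. It fell 1.67-fold by day 6 (log2 -0.74 ± 0.08, adjusted p = 3.56e-11), while days 6 and 4 differed by log2 -0.12 ± 0.08 (adjusted p = 0.242). Its day 2 fall of log2 -0.29 ± 0.07 (adjusted p = 0.000514) became -0.16 (adjusted p = 0.0504) with library size as the only scaling.

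Acvr2b (ENSMUSG00000061393, chromosome 9, 119402118 to 119434995), a type II receptor gene, was at 28.6, 30.2 and 29.9 CPM at day 0, 17.8, 18.1 and 19.5 CPM at day 2, 20.04, 19.98 and 21.0 CPM at day 4, and 23.6, 25.0 and 21.2 CPM at day 6. Day 0 was highest and day 2 lowest, with no overlap between days. It fell 1.60-fold by day 2 (log2 -0.68 ± 0.08, adjusted p = 2.49e-09) and was 1.26-fold higher at day 6 than at day 2 (log2 0.34 ± 0.08, adjusted p = 0.000445). Neither step between, log2 0.14 ± 0.09 and 0.20 ± 0.08, passed (adjusted p = 0.182 and 0.0543), though the last passed without replicate 3 of day 6 (adjusted p = 0.0226).

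The count of each receptor gene was also set against that of a relative, in pairs chosen with earlier results of these data known. Tgfbr1, which encodes the type I receptor of TGF-beta that also activates SMAD2 and SMAD3, went from 22.1 ± 1.38 CPM at day 0 to 45.7 ± 0.998 CPM at day 6. The count ratio of Acvr1b to Tgfbr1 moved from 1.99 to 1.01, 0.685 and 0.571 over days 0, 2, 4 and 6, each day below the one before it (exact permutation test, p = 6.49e-05, the smallest it can give, adjusted p = 0.000195). Acvr2a, the other activin type II receptor gene, rose from 8.19 ± 1.18 to 20.1 ± 1.44 CPM. The ratio of Acvr2b to Acvr2a dropped from 3.61 at day 0 to 1.13 at day 2, then was 1.30 and 1.16 (exact permutation test, p = 0.00026, adjusted p = 0.000487).

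The signal transducer genes rose. Smad2 (ENSMUSG00000024563, chromosome 18, 76241580 to 76310963) was at 61.3, 56.1 and 57.8 CPM at day 0, 82.4, 78.2 and 85.9 CPM at day 2, 70.7, 76.7 and 73.7 CPM at day 4, and 68.5, 72.2 and 72.3 CPM at day 6. Day 2 was highest, day 0 lowest, and days 4 and 6 overlapped. Smad2 rose 1.40-fold by day 2 (log2 0.49 ± 0.06, adjusted p = 6.38e-10) and stayed 1.21-fold above day 0 at day 6 (log2 0.28 ± 0.06, adjusted p = 4.55e-05). From day 2 to day 6 it fell 1.16-fold (log2 -0.21 ± 0.05, adjusted p = 0.000584). Its fall from day 2 to day 4, log2 -0.16 ± 0.05 (adjusted p = 0.0137), was lost in DESeq2 (adjusted p = 0.0716), after thinning all libraries to the lowest total (adjusted p = 0.153), and without replicate 3 of day 2 or replicate 1 of day 4 (adjusted p = 0.0709 and 0.0927).

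Smad3 (ENSMUSG00000032402, chromosome 9, 63646767 to 63757994) was at 15.9, 14.2 and 13.7 CPM at day 0, 20.1, 20.6 and 22.8 CPM at day 2, 28.4, 31.4 and 25.1 CPM at day 4, and 34.2, 35.5 and 32.6 CPM at day 6. Each day lay above the one before it. Smad3 rose 1.44-fold by day 2 (log2 0.53 ± 0.10, adjusted p = 1.24e-05), 1.35-fold more by day 4 (log2 0.44 ± 0.08, adjusted p = 3.77e-05) and 2.33-fold over the whole course (log2 1.22 ± 0.09, adjusted p = 7.44e-15). The last step, log2 0.26 ± 0.08 (adjusted p = 0.00880), did not pass without replicate 3 of day 4 (log2 0.19, adjusted p = 0.0701). The count ratio of Smad2 to Smad3 was 3.99 at day 0 and 3.88 at day 2, with overlap, then 2.61 at day 4 and 2.08 at day 6, each below the day before (exact permutation test, p = 0.000325, adjusted p = 0.000487). The fibroblast marker sum, 28.3 to 32.7 CPM at day 0 and 25.3 to 27.5 CPM at day 2, was 241 to 257 CPM at day 6, and its part in the values of Smad3 was not tested.

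Smad7 (ENSMUSG00000025880, chromosome 18, 75367529 to 75395935), whose product blocks SMAD2 and SMAD3 activation and is induced by TGF-beta signals, was at 50.7, 55.7 and 51.5 CPM at day 0, 13.3, 12.3 and 14.1 CPM at day 2, 12.1, 11.2 and 11.4 CPM at day 4, and 20.9, 18.4 and 20.4 CPM at day 6. Day 0 was highest, days 2 and 4 lowest, and day 6 lay between. It fell 3.98-fold by day 2 (log2 -1.99 ± 0.08, adjusted p = 2.43e-23), did not pass between days 2 and 4 (log2 -0.19 ± 0.10, adjusted p = 0.133), and rose 1.72-fold from day 4 to day 6 (log2 0.78 ± 0.10, adjusted p = 2.17e-08).

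**Figure D3:**
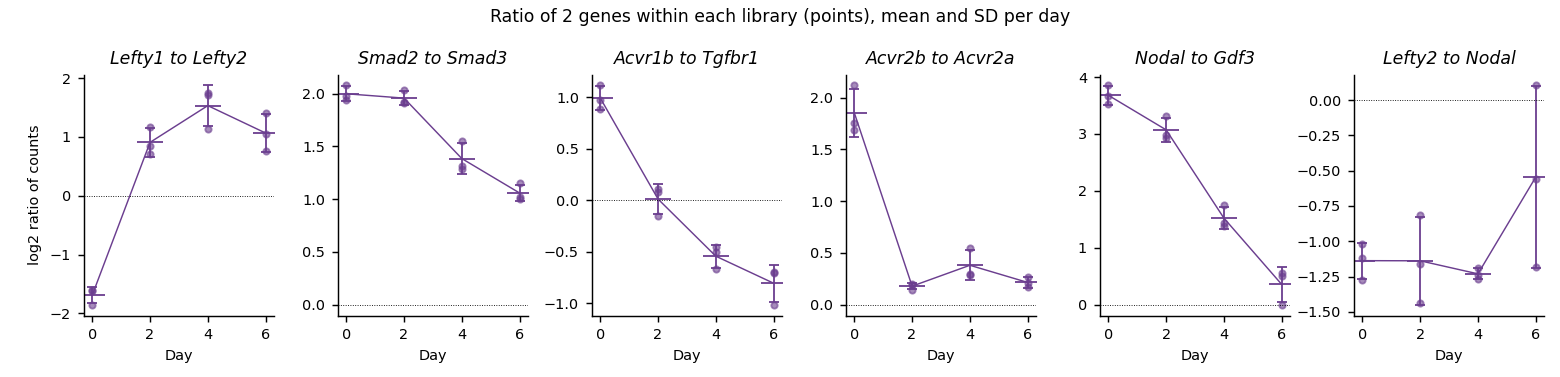
Log2 ratio of counts of 2 genes within each library (vertical axis, 1 point per library, bars for mean and SD of 3) against day, for the 6 pairs tested. Lefty1 to Lefty2 crosses 0 between day 0 and day 2, from a ratio of 0.310 to 1.88, and the ratios of Smad2 to Smad3, Acvr1b to Tgfbr1 and Nodal to Gdf3 end lower than they began.

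Levels of different genes can be set side by side only per length. Per kilobase of merged exons and 1e6 counts (RPKM), Tdgf1 led at day 0 with 201, followed by Nodal at 15.3, Smad7 at 11.6, Acvr1b at 9.93, Acvr2b at 7.52, Smad2 at 6.65, Lefty2 at 5.59, Smad3 at 2.63, Lefty1 at 2.55 and Gdf3 at 1.01 RPKM. At day 2 the leading level was that of Smad2, 9.36 RPKM, before Acvr1b at 8.11, Lefty1 at 6.03, Nodal at 5.99, and Acvr2b and Tdgf1 at 4.70 and 4.66. By day 6 Tdgf1 led again at 19.2 RPKM, followed by Smad2 at 8.09, Smad3 at 6.15, and Acvr1b and Acvr2b at 5.93 each, and the ligand and Lefty genes were all under 1 RPKM, from 0.968 for Lefty1 through 0.562 for Nodal and 0.387 for Gdf3 to 0.311 for Lefty2. The count ratio of Nodal to Gdf3 went from 12.8 through 8.40 and 2.87 to 1.28 (exact permutation test, p = 6.49e-05, adjusted p = 0.000195).

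Of the other genes of the pathway, 52 names were listed, 51 found in the table and 43 tested. These lists were also chosen with earlier results of these data known. The name not found, Ctgf, is an older symbol of Ccn2, which was found. Against day 0, 23 rose and 13 fell at day 2, 23 and 11 at day 4, and 25 and 10 at day 6, with medians of log2 0.24, 0.22 and 0.31 beside 0.02, 0.01 and 0.02 over all genes. Over all genes tested, 34.9% rose and 33.2% fell at day 2, 37.5% and 36.1% at day 4, and 39.4% and 37.5% at day 6, and the counts of each list below stand against these shares. Among ligand genes, 4 of 7 tested rose and 2 fell by day 6. Inhbb, which encodes the beta B subunit of activin and inhibin, fell from 17.7 ± 2.16 CPM at day 0 to 4.00 ± 0.480, 1.05 ± 0.255 and 0.242 ± 0.0498 CPM (day 6 against day 0, log2 -6.09 ± 0.25, adjusted p = 1.56e-23). The TGF-beta genes Tgfb2 and Tgfb3 rose late, Tgfb3 from 3.07 ± 0.404 at day 0 and 3.14 ± 0.630 at day 2 to 27.3 ± 1.17 CPM at day 6, and Tgfb2 from 0.517 ± 0.343 to 8.77 ± 0.483 CPM. Gdf11 rose from 3.14 ± 0.655 to 12.2 ± 0.242 CPM by day 2 and was at 15.3 ± 2.03 CPM at day 6. The fibroblast marker sum rose over the same days as Tgfb2 and Tgfb3, and its part was not tested.

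Of 6 tested receptor and co-receptor genes, 4 rose and 1 fell by day 6. Tgfbr3, for the TGF-beta co-receptor betaglycan, rose 11.5-fold to 53.2 ± 2.47 CPM, and Tgfbr2, for the TGF-beta type II receptor, 3.57-fold to 17.5 ± 0.924 CPM. Eng (endoglin) fell 5.05-fold, from 25.5 ± 1.97 to 5.01 ± 0.506 CPM. Cfc1, the other EGF-CFC gene, had 2, 5, 4 and 7 counts summed over the libraries of days 0, 2, 4 and 6 and was not tested, and Acvr1c, another type I receptor gene, had 0, 9, 5 and 2.

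Among 9 tested genes of ligand processing and extracellular inhibition, 4 rose and 2 fell by day 6. Fst (follistatin, which binds activins) rose 5.19-fold to 13.8 ± 0.648 CPM, the latent TGF-beta binding protein gene Ltbp1 4.44-fold to 59.7 ± 0.557 CPM, and the proprotein convertase gene Pcsk5 7.43-fold to 4.71 ± 0.882 CPM. Fstl3, a relative of follistatin, fell 11.6-fold by day 2 (log2 -3.54 ± 0.43, adjusted p = 5.96e-08) and was at 1.21 ± 0.658 CPM at day 6 against 4.24 ± 0.862 at day 0. Cer1, a Nodal antagonist of the embryo, had 4 counts in all 12 libraries.

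Of 13 nuclear partners and SMAD regulators, 10 rose and 3 fell by day 2 (34.9% and 33.2% of all genes), and 8 rose and 2 fell by day 6 against day 0 (39.4% and 37.5%). Their median log2 change was 0.21 at day 2 and 0.22 at day 6. Foxh1 fell from 8.36 ± 0.620 CPM at day 0 to 5.92 ± 0.973, 1.77 ± 0.558 and 0.992 ± 0.242 CPM (day 6 against day 0, log2 -3.01 ± 0.23, adjusted p = 6.89e-15). The corepressor gene Tgif1 fell 2.25-fold and its relative Tgif2 rose 1.55-fold by day 6, and Nedd4l, a ubiquitin ligase gene, fell 1.45-fold by day 2 and was 1.46-fold above day 0 at day 6. The 10 tested target genes outside the members split into 6 up and 4 down at day 6. Foxa2 rose from 0.874 ± 0.290 to 30.6 ± 0.512 CPM and Lhx1 from 0.199 ± 0.121 (5 counts in all) to 3.99 ± 0.648 CPM. T (brachyury) fell from 3.37 ± 0.193 to 0.120 ± 0.108 CPM, 4 counts in all at day 6. Foxa2 is also on the extraembryonic endoderm list, whose 10 markers all rose, and the part of that shift was not tested.

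**Figure D4:**
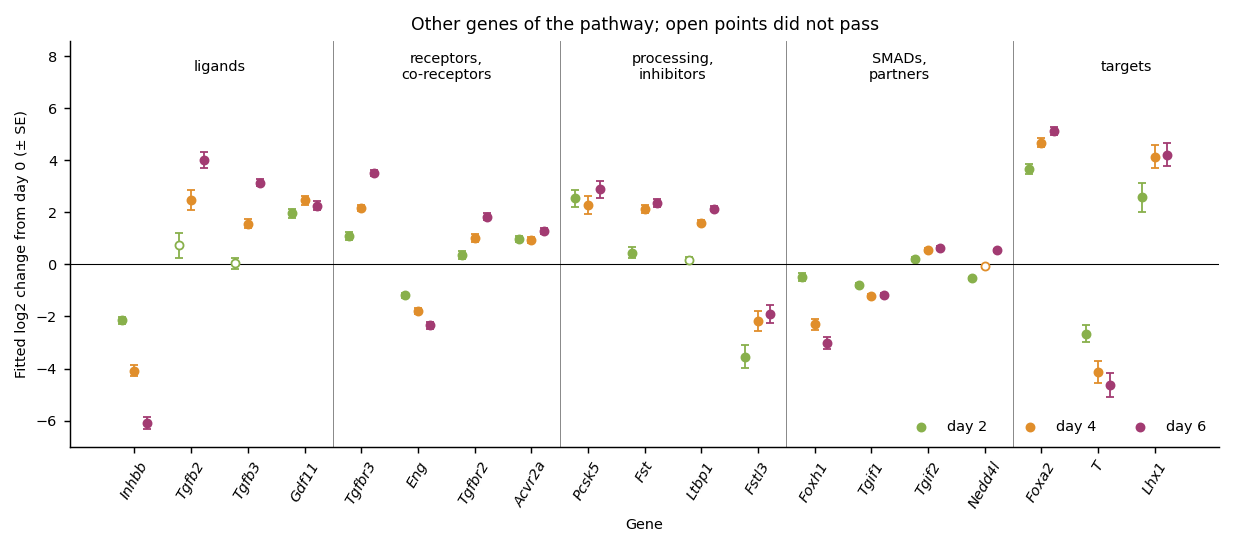
Fitted log2 change from day 0 with its SE (vertical axis) at days 2, 4 and 6 for 3 or 4 other genes of each pathway list, grouped by role; open points did not pass. Inhbb, Foxh1 and T go further down with each day, and Tgfb2, Tgfb3 and Tgfbr3 further up.

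The genes most like Tdgf1 were found by the root mean square difference of centred log2 CPM over the 12 libraries, among 11624 others. They were Tdgf1-ps1 (0.38), Socs3 (0.47), a feedback inhibitor gene of LIF signalling, Kcnh3 (0.61), a potassium channel gene, Gfod1 (0.62) and Lrrc2 (0.68). Socs3 went from 129 ± 2.67 to 4.43 ± 1.28, 10.9 ± 0.966 and 25.5 ± 0.777 CPM. Lrrc2 is also the next protein-coding gene to Tdgf1, 5386 bases away and on the opposite strand. It fell 23.2-fold by day 2, from 24.4 ± 1.43 to 1.05 ± 0.270 CPM, but its rise from day 2 to day 6 did not pass (log2 0.26 ± 0.32, adjusted p = 0.492). Fam240a, the next gene on the other side, fell from 3.95 ± 0.554 to 0.185 ± 0.108 CPM by day 2 and did not pass from day 2 to day 6 either (adjusted p = 0.555).

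Those most like Nodal were Tcf15 (0.175), a transcription factor gene, Nanog (0.26), of the core pluripotency network, and Mobp (0.27). Nanog went from 276 ± 3.14 through 82.9 ± 2.96 and 22.1 ± 1.83 to 8.68 ± 1.33 CPM, and Tcf15 from 74.5 ± 6.95 through 26.1 ± 1.28 and 9.26 ± 0.221 to 3.32 ± 0.830 CPM. Sde2 and Tmem63a, the neighbours on the outer sides of the Lefty genes, did not pass at day 2 against day 0 (adjusted p = 0.444 and 0.279). Beside Gdf3, Dppa3 (an ES and germ cell gene, 16322 bases away) dipped from 16.2 ± 0.361 to 3.36 ± 0.343 CPM by day 2 and was back at 14.7 ± 0.573 CPM at day 6, while Gdf3 stayed low.

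**Figure D5:**
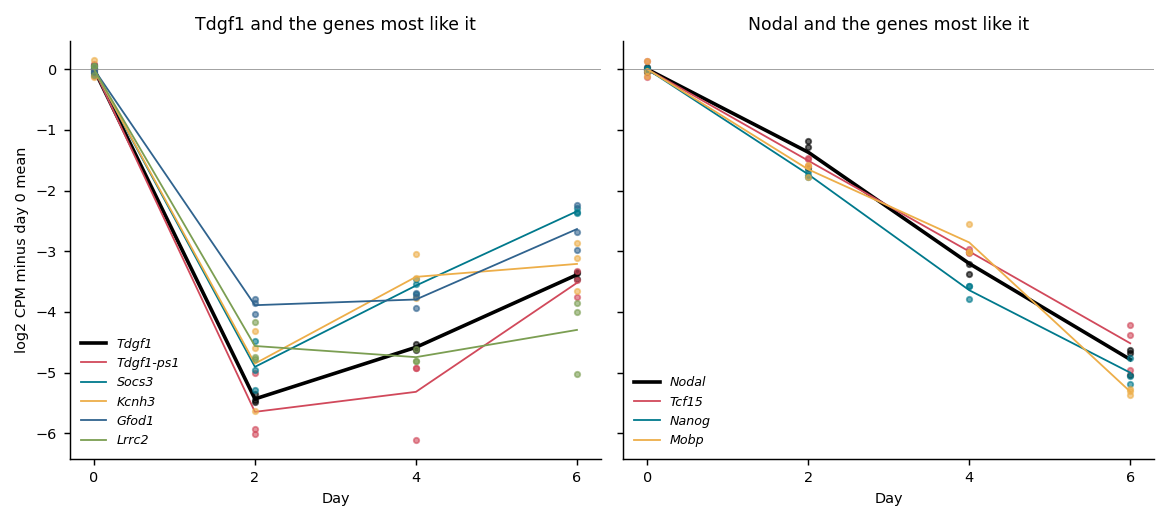
Log2 CPM minus the day 0 mean (vertical axis) against day for Tdgf1 with the 5 genes most like it (left) and Nodal with the 3 most like it (right), 1 point per library and lines through day means. The left group falls steeply to day 2, after which Tdgf1 and Socs3 climb and Lrrc2 stays low, and the right group steps down to day 6.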

How the data were processed

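RNA was measured in 12 libraries. The authors deposited a table of unnormalized gene counts. The submitters' processing notes list featureCounts 2.0.1, HISAT2 2.1.0, FastQC 0.11.7 and DESeq2 without a version, and name the build mm10, without saying what each tool did. Strandedness and reads with several positions are not described. Coordinates, exon lengths and transcripts come from GENCODE M21 (GRCm38), which held 55154 of the 55335 gene IDs. No exon of a member overlapped another gene's.

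The main analysis used edgeR 4.0.16 under R 4.3.3: filterByExpr by day, TMM scaling and a robust quasi-likelihood fit with a coefficient per day to all 12 libraries. Tests were two-sided, with Benjamini-Hochberg adjustment over 16468 genes and a threshold of 0.05, and SE were recovered from the test statistic. The procedure was tested on simulated data. Ratios had 0.5 added to each count and were tested over 15400 arrangements. Members, lists and ratio pairs were chosen with earlier results of these data known. The rule for named genes took all members, up to 4 other genes per pathway list that passed the F-test, with the largest day 6 change whose higher mean reached 1 CPM, and the 5 and 3 genes most like Tdgf1 and Nodal among those with at least 5 CPM. Tgfbr1 was named as the partner in a ratio whose pair was listed with the tests. Neighbouring genes, Tgfb1, single cell type markers and genes given by counts were named outside the rule, after their values were seen. Results for some genes are not reported here. Motifs were chosen from general knowledge.

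Alternatives were 3 other scalings, 2 filters, DESeq2 1.42.0, limma-voom (limma 3.58.1), fits to 6 libraries, a replicate block, a threshold of 0.01, thinned counts and leaving out each library.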

Additional observations from a re-analysis of the deposited data

How the results depend on the processing

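Of the 60 member values (10 genes in 6 comparisons), recomputed under 23 settings, 1360 recomputed values kept their direction and side of the threshold, 12 lost the call, 3 gained it and 5 changed sign. The sign changes were in values that had not passed: Lefty1, day 4 against day 0, became log2 0.10 with library size alone, 0.019 with no filter, and 0.040 without replicate 3 of day 0 or 0.037 without replicate 3 of day 4 (-0.108 to 0.040 leaving out each library), and Gdf3 at day 4 against day 2 became 0.0083 in thinned counts. The lost calls were those given above and, at a threshold of 0.01, those of Gdf3 at day 2 (adjusted p = 0.0141) and Smad2 from day 2 to day 4. Gdf3 from day 2 to day 6 passed without replicate 2 of day 6 (adjusted p = 0.0268). With library size alone, 5 genes of ligand processing and inhibition rose at day 2 in place of 3, and 10 SMAD and partner genes at day 4 in place of 6. Under that scaling, log2 changes against day 0 moved up by a median of 0.13 at days 2 and 4. The cause of the other changes above was not tested. Leaving out 1 library gave 6 to 7 falls at day 2, 4 to 5 from day 2 to day 4, 5 to 6 from day 2 to day 6 and 2 to 3 from day 4 to day 6, with 2 to 4 rises from day 4 to day 6, and the day 6 minus day 0 ratio of Lefty2 to Nodal ran from log2 0.27 to 0.91.

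Same-numbered libraries of different days did not deviate together (correlation -0.06 to 0.10 over 18 pairs, and 8 of 36 best matches with the same number), so the numbers were not taken to pair samples. With a replicate block, 11195 genes changed at day 2, against 11216 without it, and 14635 over the 4 days, against 14685, and the members' counts were the same in all 6 comparisons. By Pearson r instead, none of the 5 genes most like Tdgf1 and 1 of the 3 most like Nodal (Tcf15) were the same; Pcolce was then first for Tdgf1 (r = 0.999 over 12 libraries that share 4 days). Depth limits the low values: Gdf3 had 60 counts at day 0 and 29 at day 6, and Lefty2 had 27 and Nodal 37 at day 6, each summed over 3 libraries. In counts thinned to the lowest total, Smad2 from day 2 to day 4 lost its call and Gdf3 over the same days changed sign.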
